A study of Homo sapiens with 4 samples.

Results

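The genes described here build, move and anchor the actin cytoskeleton: 45 genes chosen by name as actins, crosslinkers, myosin II chains, tropomyosins, subunits of the ARP2/3 complex, filament turnover factors and adhesion linkers. All 45 were found by symbol among the 58302 Ensembl genes of the tables, and 42 had a mean of at least 1 FPKM (fragments per kilobase of transcript at a common depth) over the 4 libraries and were tested. FLNC, LIMA1 and MYL9 lay below that level. PolyA RNA came from T24, an established human line from a bladder (urothelial) carcinoma. In 2 libraries the cells were labelled IGF2BP3 knockout, made with CRISPR/Cas9 as a stable line per the series text, and 2 libraries came from T24 cells labelled control. No clone, culture, passage or other treatment is given for either group, so the spread between these samples may be technical. The p-values rest on that spread in genes of like level, not on a gene's own replicates. The comparison addresses how RNA levels in T24 differ when IGF2BP3, an RNA-binding protein of a family that binds N6-methyladenosine (m6A)-marked messages, is lost.

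Actin monomers polymerise into filaments that give cells their shape, push the membrane forward during migration and, with myosin II motors, pull on adhesions. Profilin feeds monomers to formins, the ARP2/3 complex starts branches, cofilin severs old filaments, and crosslinkers and linkers tie filaments to one another and to the membrane. ACTB has a particular place here, because the chicken protein ZBP1, a founding member of the IGF2BP family, was found through its binding to the ACTB message.

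The libraries were shallow, with read totals of 811823 and 1240207 for knockouts 1 and 2 and of 2162179 and 1870884 for controls 1 and 2, worked out from the FPKM steps. IGF2BP3 itself had FPKM of 0 and 0.190 in the knockouts and of 2.94 and 21.5 in the controls (0 and 1 reads against 27 and 171), which goes with the labels although its fitted difference did not pass (adjusted p = 0.955 in limma). Of 13 urothelial and epithelial markers, 8 were at 0 in all 4 libraries, the uroplakins UPK1A, UPK1B, UPK2 and UPK3A among them, and KRT8, KRT18 and KRT7 carried the list, whose sum was 1499 and 1163 FPKM in the knockouts against 439.7 and 575 in the controls. All 7 leukocyte markers were at 0 in every library, and so were 8 of 9 muscle markers, the exception being MYH11 at 6.98 FPKM in knockout 1 and 0.201 FPKM in control 1. The part of these markers in the results was not tested.

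Knockout 1 stood apart for these genes. Across the 42 tested genes, which are not independent replicates, the Pearson correlation of log2(FPKM + 0.5) was 0.76 between the knockouts and 0.93 between the controls. Knockout 1 correlated at 0.65 and 0.77 with controls 1 and 2, and knockout 2 at 0.82 and 0.94. Over all 11463 tested genes the same 6 correlations lay between 0.42 and 0.49. The lowest there also involved knockout 1, at 0.42 with control 1, 0.43 with knockout 2 and 0.45 with control 2. The other pairs lay at 0.46 to 0.49. Knockout 1 held the lowest of the 4 values for 20 of the 42 genes and the highest for 13, against 28.99% and 24.5% of all tested genes. Control 1 held the lowest for 15 (24.1% of all tested) and the highest for 10. For the genes of the set named in full, the fold without knockout 1 stands beside the fold from all libraries. The genes come from many chromosomes, and those the results turn on are, in hg38 with GENCODE 29, ACTB (ENSG00000075624, chromosome 7, 5527147 to 5563784, minus strand), ACTG1 (ENSG00000184009, chromosome 17, 81509971 to 81523847, minus strand), ARPC3 (ENSG00000111229, chromosome 12, 110434825 to 110450422, minus strand), CFL1 (ENSG00000172757, chromosome 11, 65823022 to 65862026, minus strand) and TMSB10 (ENSG00000034510, chromosome 2, 84905625 to 84906675, plus strand). Each value counts reads over the exons of the whole gene. In bulk RNA, fewer cells of one kind and less RNA per cell cannot be told apart.

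A feature that the choice by name did not use is the CArG box, the element that serum response factor (SRF) binds and through which many actin genes are known to be controlled. RefSeq windows (GRCh38.p14) from 250 bases before to 50 after a gene start were at hand for 40 of the 45 genes. ACTB, FSCN1, MYL9, ARPC1B and CTTN had none. The box, searched by its name alone and reading alike on both strands, was in 4 of 64 windows of these genes (6.25%) and in 1.29% of all 35116 windows. It is shown for each of the 4 genes in capitals within 100 bases, 5′ to 3′ on the gene's strand, since all 4 are among the abundant genes of the set.
ACTG1: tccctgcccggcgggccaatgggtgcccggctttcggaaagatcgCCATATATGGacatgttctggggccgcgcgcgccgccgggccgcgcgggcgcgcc
FLNA: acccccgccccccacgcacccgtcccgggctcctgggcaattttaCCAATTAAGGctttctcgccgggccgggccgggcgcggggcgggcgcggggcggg
ACTN1: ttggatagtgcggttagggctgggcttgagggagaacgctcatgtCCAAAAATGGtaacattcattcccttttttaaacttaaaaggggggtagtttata
TPM4: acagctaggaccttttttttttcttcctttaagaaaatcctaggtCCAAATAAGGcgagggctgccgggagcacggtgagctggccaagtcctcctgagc
These stretches are chr17:81512839-81512938 for ACTG1, chrX:154374674-154374773 for FLNA and chr14:68977683-68977782 for ACTN1, all on the minus strand, and chr19:16067320-16067419 on the plus strand for TPM4. In ACTG1 and in FLNA the box ran from 94 to 85 bases before the start, in ACTN1 from 171 to 162 and in TPM4 from 173 to 164. A match describes the letters in the window and is not a bound site. Fitted log2 fold changes (± SE) of the 4 genes were −0.45 ± 0.28 for ACTG1, −0.01 ± 0.42 for FLNA, 0.19 ± 0.54 for ACTN1 and −0.11 ± 0.56 for TPM4. Those of FLNA, ACTN1 and TPM4 were smaller than their SE and turned sign with 1 library left out. Their direction is therefore not settled, and control through SRF was not tested.

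None of the 42 tested genes differed between knockout and control past the threshold (adjusted p under 0.05, limma with Benjamini-Hochberg adjustment over all genes tested). Over all 11463 tested genes 0.0872% passed (higher in the knockout for 0.0611%, lower for 0.0262%). An unadjusted p under 0.05 was reached by 3 of the 42 (ARPC3, CFL1 and TMSB10), against 3.91% of all tested. Fitted values were higher in the knockout for 21 genes and lower for 21, where 48.2% of all tested were higher. The median fitted log2 fold change was 0.01, beside −0.08 over all tested genes. Adjusted p-values of the 42 genes ran from 0.663 to 1.00, and only CFL1 and ARPC3 were under 0.95. For 25 of the 42 the fold was smaller than its own SE. Both knockouts stood above both controls for 8 genes, where 12.1% of all tested did so, and below both for 10, where 14.4% did. Together that is 42.9% of the genes against 26.5% of all tested. Among genes of at least 100 FPKM it was 9 of 25, against 28.4% of all such genes, and among lower genes 9 of 17, against 26.4%. The lower genes were not matched for level, with a median mean of 52.1 FPKM in the set against 9.59 FPKM. A listed 0 occurred in 11.8% of the lower genes of the set, against 51.6% of all lower genes.

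**Figure D1:**
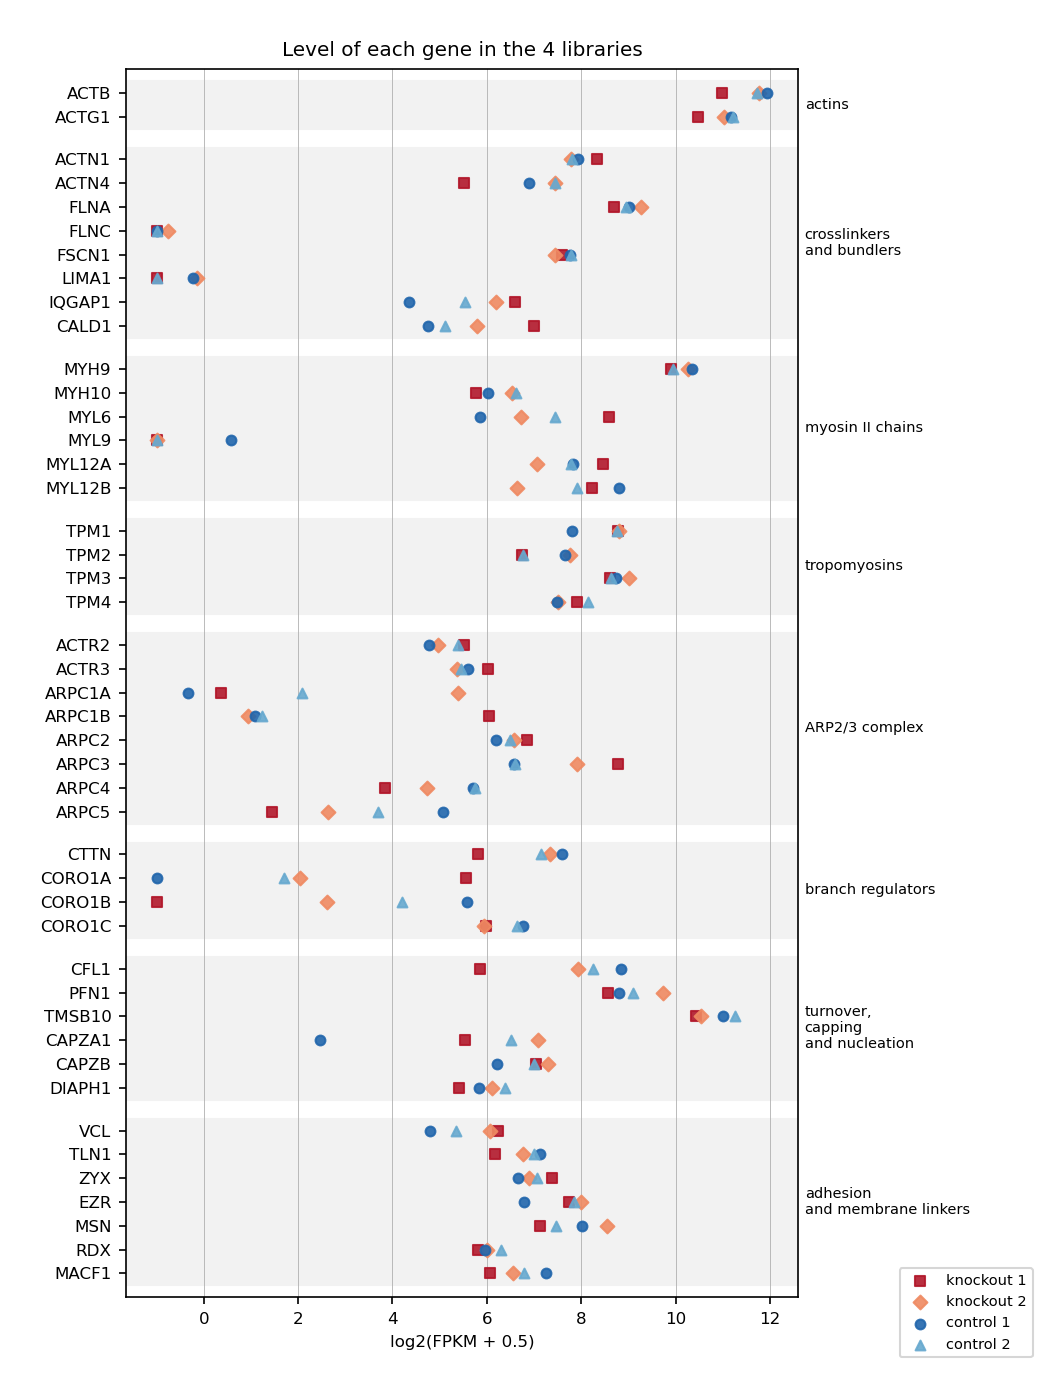
Level of each of the 45 genes as log2(FPKM + 0.5) on the horizontal axis, grouped by role, with 1 point for each library (red squares and orange diamonds knockouts 1 and 2, blue circles and light blue triangles controls 1 and 2). ACTB and ACTG1 lie furthest right, FLNC, LIMA1 and MYL9 near 0 FPKM, and knockout 1 is often the outermost point of a row.

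The libraries of a group lay closer together for these genes than for tested genes at large, and the genes were also more abundant. The median absolute log2 gap was 0.67 between the knockouts and 0.46 between the controls, against 1.89 and 1.60 over all tested genes. Their median mean level was 129 FPKM, against 10.4 for all tested genes. Among genes of at least 100 FPKM the gaps were 0.58 between the knockouts and 0.42 between the controls for 25 genes of the set, beside 0.71 and 0.51 for all 539. A gap of over 1 on the log2 scale separated the knockouts for 16 of the 42 genes and the controls for 8. A listed 0 occurred in 2 of the 42 genes, CORO1A and CORO1B, and in 49.4% of all tested.

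**Figure D2:**
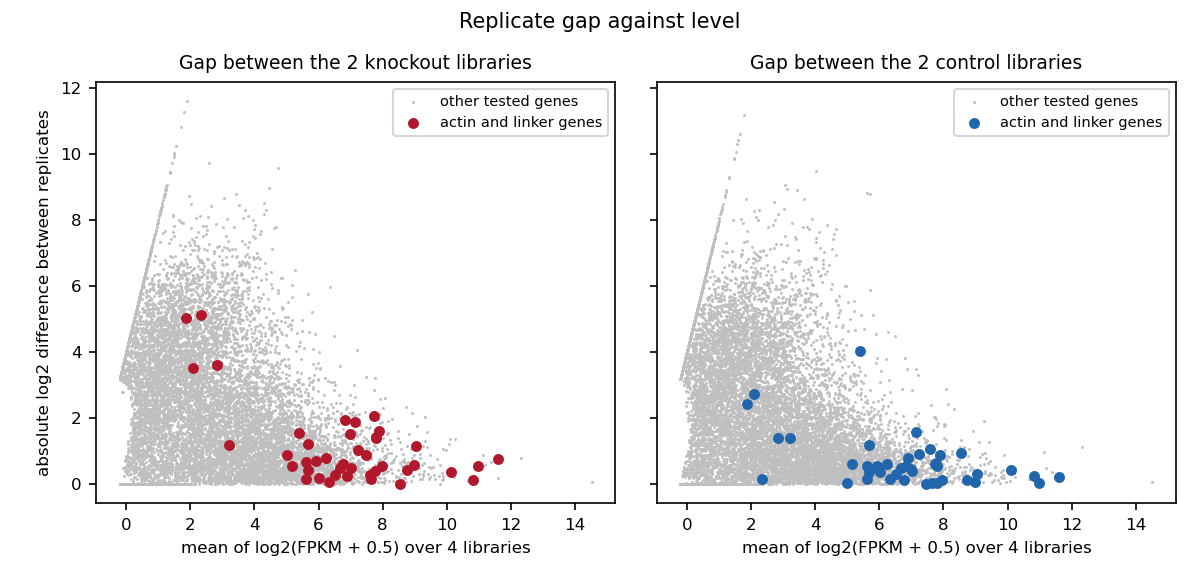
Absolute log2 difference between the 2 libraries of a group (vertical axis, knockouts left, controls right) against the mean of log2(FPKM + 0.5) over the 4 libraries (horizontal axis), 1 point per tested gene, with the 42 genes in colour over the other tested genes in grey. The coloured points lie mostly at high levels and small gaps, with medians of 0.67 between knockouts and 0.46 between controls.

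The cytoplasmic actins were the most abundant genes of the set and ranked 3 and 8 among all genes. ACTB, which encodes beta-actin, had FPKM 2036 and 3472 in knockouts 1 and 2, against 3952 and 3389 in controls 1 and 2. Only knockout 1 was low, and knockout 2 lay between the controls. The fitted log2 fold change was −0.46 ± 0.24 (SE), with an adjusted p of 0.955 in limma, and it was −0.08 without knockout 1. Limma-voom on recovered reads gives values with more reads more weight, and ACTB had 3710 reads in knockout 1 and 9668 in knockout 2. Limma-voom gave a fold of −0.24 with an adjusted p of 6.1e-05. In that fit, over the 11050 tested genes with whole reads recovered in every library, 0.0814% passed. ACTB was the single gene of the set called. MACF1 (−0.68, adjusted p = 0.058) and ACTG1 (−0.32, adjusted p = 0.068) came near the threshold in limma-voom without passing. The fold of ACTB depended on the library left out. The limma-voom fold of ACTB was −0.12 without knockout 1, −0.24 without control 1, −0.87 without knockout 2 and −0.44 without control 2. These fits leave 1 library in a group, so no call is read from them. ACTG1, which encodes gamma-actin, had FPKM 1428 and 2076 in knockouts 1 and 2, against 2328 and 2385 in controls 1 and 2. Both knockouts were below both controls, knockout 2 by little, and the log2 fold change was −0.45 ± 0.28 (SE) with all libraries (adjusted p = 0.955) and −0.18 without knockout 1. ACTB made up 58.8 and 62.6% of the actin pair in knockouts 1 and 2 and 62.9 and 58.7% in controls 1 and 2, so the balance of the actins overlapped between groups.

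ACTB and ACTG1 encode near-identical proteins, and both genes have processed copies in the genome. Of 50-nt windows along the longest annotated transcript, 7.01% for ACTB and 3.58% for ACTG1 occur exactly in a transcript of another gene. Of 77 annotated pseudogenes named after 16 of the 45 genes, 14 were above 0 in some library, and the highest value was 36.2 FPKM (PFN1P1 in knockout 2). How shared reads were counted is not given in the sources used here, and its part in these values was not tested.

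Crosslinkers and bundlers tie filaments into networks and cables, and none of the 6 tested passed. FLNA, which encodes filamin A, a gel-forming crosslinker, had FPKM 412 and 615 in knockouts 1 and 2, against 519.9 and 494 in controls 1 and 2. The groups overlapped, with a log2 fold change of −0.01 ± 0.42 (SE), 0.28 without knockout 1. ACTN1, an alpha-actinin of stress fibres, had 322 and 220.5 in the knockouts against 242 and 225 in the controls, again with overlap and a fold of 0.19 ± 0.54 (SE), −0.08 without knockout 1. Its relative ACTN4 had 45.4 and 175 in the knockouts against 119 and 173 in the controls, where knockout 1 was lowest and the log2 fold change of −0.68 ± 0.71 (SE) became 0.28 without that library. FSCN1, which encodes fascin, the bundler of filopodia, had 193 and 173 in the knockouts against 216 and 220.0 in the controls. Its groups did not overlap, but the fold of −0.26 ± 0.58 (SE) was smaller than its SE, and it was −0.33 without knockout 1.

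A pair of regulators in this group stood higher in both knockouts. CALD1, which encodes caldesmon, a protein that binds actin, myosin and tropomyosin, had FPKM 127 and 54.8 in knockouts 1 and 2, against 26.6 and 34.0 in controls 1 and 2. The log2 fold change was 1.46 ± 0.95 (SE), 0.86 to 2.07 with 1 library left out and 0.86 without knockout 1 (adjusted p = 0.955 in limma). IQGAP1, a scaffold that binds CDC42 and RAC1, had 96.7 and 72.6 in the knockouts against 20.0 and 46.0 in the controls. Its groups did not overlap either, and the fold of 1.45 ± 0.95 (SE) was 1.24 without knockout 1 and did not pass. FLNC, the muscle-enriched filamin, and LIMA1, which encodes EPLIN, had at most 1 and 3 reads in any library, and FLNC was at 0 in 3 libraries.

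Myosin II chains form the motor that slides actin filaments, and the groups overlapped for all 5 tested. MYH9, the heavy chain of non-muscle myosin IIA, had FPKM 963 and 1229 in knockouts 1 and 2, against 1309.7 and 979.7 in controls 1 and 2. The log2 fold change of −0.06 ± 0.33 (SE) was well within its SE, and it was 0.12 without knockout 1. MYH9 was 17.9 and 13.3 times as high as MYH10, the IIB heavy chain, in the knockouts and 20.3 and 10.03 times as high in the controls. Among light chains, MYL6, the essential chain, had 384 and 105 in the knockouts against 57.4 and 173 in the controls. Knockout 1 was highest, and the fold of 1.01 ± 0.65 (SE) was 0.08 without it.

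MYL12A and MYL12B encode near-identical regulatory light chains side by side on chromosome 18. MYL12B had 302 and 98.8 in the knockouts against 443 and 240.1 in the controls, a fold of −0.91 ± 0.55 (SE) or −1.72 without knockout 1. MYL12A had 352 and 134 in the knockouts against 227 and 221 in the controls, a fold of −0.04 ± 0.56 (SE), −0.74 without knockout 1. Knockout 2 was lowest for both genes and the groups overlapped. The ratio of MYL12A to MYL12B was 1.17 and 1.36 in the knockouts against 0.512 and 0.920 in the controls, so these ratios did not overlap. Ratios between genes are given as values and were not tested; an exact two-sided permutation test of 2 against 2 cannot give less than 0.333. Of their 50-nt windows 9.41% and 9.42% occur in another gene, the partner among them. MYL9, the smooth muscle regulatory light chain, had 6 reads in control 1 and 0 in the other libraries, where 0 allows up to 1.31 and 0.857 FPKM in knockouts 1 and 2 and 0.568 in control 2 (3 reads, counting error only).

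Tropomyosins lie along the filament groove and set which proteins can bind it. All 4 were above 100 FPKM in every library. TPM3 had 389 and 518 in the knockouts against 426 and 394 in the controls, with a fold of 0.13 ± 0.45 (SE), 0.34 without knockout 1. TPM4 had 239 and 183 in the knockouts against 180.2 and 282 in the controls, with a fold of −0.11 ± 0.56 (SE), −0.30 without knockout 1. TPM2 had 107 and 216 in the knockouts against 203 and 108 in the controls, with a fold of 0.04 ± 0.64 (SE), 0.55 without knockout 1. The groups overlapped for all of these. TPM1 had FPKM 442 and 445 in knockouts 1 and 2, against 224 and 430.4 in controls 1 and 2. Control 1 was low and the other values lay close together. The log2 fold change was 0.52 ± 0.47 (SE), and 0.04 when control 1 was left out and 0.52 when knockout 1 was. TPM1 took 37.6 and 32.7% of the tropomyosin sum in the knockouts and 21.7 and 35.5% in the controls, and the shares of the other tropomyosins overlapped as well. Exons of TPM1-AS, an antisense gene listed at 0 in every library, cover 42.8% of the longest TPM1 transcript. Whether reads were counted by strand is not given in the sources used here.

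**Figure D3:**
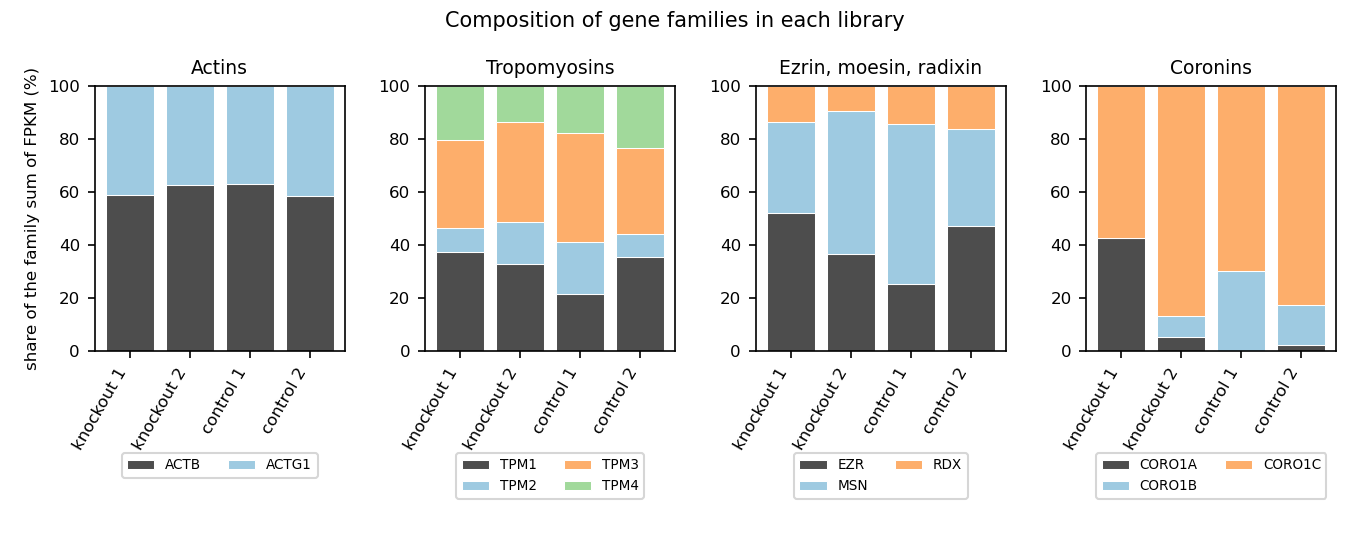
Share of each gene in the summed FPKM of its family (vertical axis, percent) in knockouts 1 and 2 and controls 1 and 2, for the actins, tropomyosins, ezrin-moesin-radixin and coronins. ACTB takes 58.7 to 62.9% of the actin pair in the 4 libraries, while the coronin shares differ widely, with CORO1A at 42.7% in knockout 1 and 0 in control 1.

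The ARP2/3 complex, a 7-subunit machine that nucleates branches, had subunits whose levels pointed in opposite directions. Its ARPC3 subunit had FPKM 439 and 241 in knockouts 1 and 2, against 95.6 and 95.9 in controls 1 and 2. The controls were nearly equal and both knockouts were above them, knockout 1 most. The log2 fold change of 1.76 ± 0.60 (SE) had the joint smallest adjusted p of the set with CFL1 (0.663 in limma, unadjusted p = 0.00358), and it was 1.33 without knockout 1 and 1.33 to 2.19 over the 4 fits with 1 library left out. ARPC4, a core subunit, pointed the other way with 13.8 and 25.9 in the knockouts against 51.9 and 53.2 in the controls, a fold of −1.45 ± 1.13 (SE) or −1.01 without knockout 1. ARPC5, another core subunit, had 2.22 and 5.70 in the knockouts against 33.0 and 12.4 in the controls, a fold of −2.34 ± 1.91 (SE) or −1.74 without knockout 1. For ARPC4 and ARPC5 both knockouts were below both controls, and neither passed (adjusted p = 0.955 each).

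The remaining core subunits had smaller folds. ARPC2 had 115 and 95.3 in the knockouts against 72.7 and 89.3 in the controls, with no overlap but a fold of 0.37 ± 0.76 (SE), 0.24 without knockout 1. ACTR3, which encodes the actin-related protein ARP3, had 64.5 and 40.9 in the knockouts against 47.8 and 43.5 in the controls, with overlap and a fold of 0.17 ± 0.96 (SE), −0.16 without knockout 1. ACTR2, for ARP2, ranged from 26.8 to 45.3 FPKM. Across ACTR2, ACTR3, ARPC2, ARPC3, ARPC4 and ARPC5, the highest level was 197 and 42.2 times the lowest in the knockouts, against 3.56 and 7.75 times in the controls. This spread, computed after the values were seen and carrying no test, did not overlap between groups. It leaves out ARPC1A and ARPC1B, and the separation depends on that. In control 1 ARPC1A was at 0.296 FPKM beside ARPC3 at 95.6. In knockout 2 ARPC1B was at 1.41 FPKM beside ARPC3 at 241, so with both genes included the spread overlapped between groups.

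ARPC1A and ARPC1B, named after their values were seen, encode alternative forms of the same subunit. ARPC1A had 0.787 and 41.2 in the knockouts against 0.296 and 3.76 in the controls. ARPC1B had 66.1 and 1.41 in the knockouts against 1.62 and 1.87 in the controls. Each was high in 1 knockout library only, ARPC1A in knockout 2 with 80 reads and ARPC1B in knockout 1 with 92 reads, while no other library held more than 11 reads of either. AC004922.1, an annotated gene that spans both (hg38, chromosome 7, 99325879 to 99394653, plus strand), shares 76.5% of the exonic bases of the longest ARPC1A transcript and 73.0% of those of ARPC1B, and was listed at 0 in all 4 libraries. ARPC4 shares 21.0% of its bases with the readthrough gene ARPC4-TTLL3, also listed at 0. HTSeq leaves a read that falls in exons of more than 1 gene uncounted in its usual mode. The mode used is not given in the sources used here, so the levels of ARPC1A and ARPC1B relative to other subunits are uncertain.

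**Figure D4:**
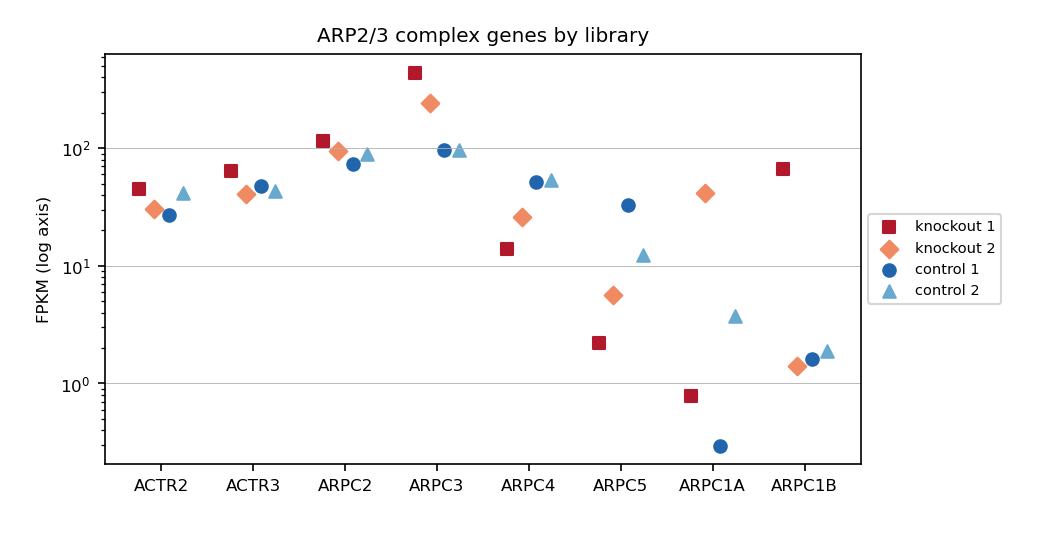
FPKM on a log axis of the 8 ARP2/3 genes in each library, with red squares and orange diamonds for knockouts 1 and 2 and blue circles and light blue triangles for controls 1 and 2. ARPC3 is higher and ARPC4 and ARPC5 are lower in both knockouts than in both controls, and ARPC1A and ARPC1B are each high in a single knockout library.

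Regulators of branches included both ends of the fold range. Cortactin (CTTN), which stabilises branches, had 56.1 and 163 in the knockouts against 192 and 141 in the controls, and its fold of −0.78 ± 0.68 (SE) was −0.02 without knockout 1. CORO1A, a coronin known mainly from leukocytes, had FPKM 46.9 and 3.63 in knockouts 1 and 2, against 0 and 2.77 in controls 1 and 2. These are 110 and 13 reads in the knockouts and 0 and 15 in the controls, so knockout 1 alone was high, and the log2 fold change of 3.45 ± 2.58 (SE) was 1.69 without it. CORO1B, the broadly expressed coronin of lamellipodia, had FPKM 0 and 5.60 in knockouts 1 and 2, against 47.2 and 17.8 in controls 1 and 2. Both knockouts were below both controls, with 0 and 31 reads against 456 and 149. The log2 fold change of −4.08 ± 2.13 (SE) was the lowest of the set, −2.28 without knockout 1, and did not pass (adjusted p = 0.955 in limma). A listed 0 in knockout 1 allows up to 0.828 FPKM of CORO1B (3 reads, counting error only).

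CORO1C, the third type I coronin, was the steadiest of the family. It had FPKM 62.8 and 60.9 in knockouts 1 and 2, against 109 and 98.97 in controls 1 and 2, and the log2 fold change of −0.74 ± 0.80 (SE) stayed within −0.81 to −0.67 with 1 library left out and was −0.77 without knockout 1. The fold was nonetheless smaller than its SE. PTPRCAP, a gene listed at 0 in all 4 libraries, overlaps 28.9% of the exonic bases of the longest CORO1B transcript on the same strand.

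Among turnover and capping factors, cofilin and thymosin were lower in both knockouts. CFL1, which encodes the filament-severing cofilin-1, had FPKM 57.7 and 244 in knockouts 1 and 2, against 462 and 305 in controls 1 and 2. Knockout 1 was far below the rest, and the log2 fold change of −1.66 ± 0.57 (SE) was −0.62 without it and −2.69 to −0.62 over all 4 fits with 1 library left out (adjusted p = 0.663 in limma, unadjusted p = 0.00353). TMSB10, which encodes the monomer-binding thymosin beta-10, had FPKM 1381 and 1494 in knockouts 1 and 2, against 2059 and 2442 in controls 1 and 2. The replicates were close in both groups. Its log2 fold change of −0.64 ± 0.29 (SE) stayed within −0.77 to −0.52 with 1 library left out (−0.59 without knockout 1) and did not pass over all genes (adjusted p = 0.955, unadjusted p = 0.0247).

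Other turnover factors had folds within their SE or overlapping groups. PFN1, which encodes profilin-1, had 381 and 847 in the knockouts against 446 and 549 in the controls, and its fold of 0.20 ± 0.42 (SE) became 0.77 without knockout 1 and −0.38 without knockout 2. CAPZB, the beta subunit of the barbed-end capping protein, had 131 and 156 in the knockouts against 73.4 and 127 in the controls, with no overlap and a fold of 0.57 ± 0.70 (SE), 0.69 without knockout 1. Its partner CAPZA1 ranged from 5.05 FPKM in control 1 to 135 FPKM in knockout 2, and DIAPH1, a formin, from 42.1 FPKM in knockout 1 to 82.6 FPKM in control 2.

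Adhesion and membrane linkers connect filaments to integrin adhesions and to the plasma membrane. VCL, which encodes vinculin, was higher in both knockouts, with FPKM 74.4 and 66.5 in knockouts 1 and 2, against 27.5 and 40.2 in controls 1 and 2. The log2 fold change of 1.07 ± 0.96 (SE) stayed within 0.80 to 1.34 with 1 library left out (0.99 without knockout 1) and did not pass (adjusted p = 0.955). TLN1, which encodes talin-1, the integrin activator that recruits vinculin, lay below both controls in both knockouts, with 71.5 and 109 in the knockouts against 138 and 128 in the controls, a fold of −0.59 ± 0.72 (SE) or −0.29 without knockout 1. MACF1, a giant crosslinker of actin and microtubules, had 66.7 and 93.8 in the knockouts against 153 and 110.0 in the controls. Its groups did not overlap either, and the fold of −0.71 ± 0.73 (SE) was smaller than its SE, and it was −0.46 without knockout 1. ZYX, which encodes the focal adhesion protein zyxin, had 168 and 119 in the knockouts against 101 and 134 in the controls, with overlap and a fold of 0.28 ± 0.67 (SE), 0.03 without knockout 1.

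Ezrin, radixin and moesin anchor cortical actin to membrane proteins and share much of their sequence. EZR had 213 and 255 in the knockouts against 109.9 and 231 in the controls, with a fold of 0.55 ± 0.59 (SE), 0.68 without knockout 1. MSN had 139.9 and 376 in the knockouts against 260.2 and 178 in the controls, with a fold of 0.09 ± 0.56 (SE), 0.81 without knockout 1. The groups overlapped for both, and RDX ranged from 55.7 to 78.6 FPKM. EZR was the larger share of the 3-gene sum in knockout 1 and control 2 (52.1 and 47.4%), and MSN in knockout 2 and control 1 (54.2 and 60.3%), so the balance went with neither group. The share of RDX was 13.6 and 9.13% in the knockouts and 14.2 and 16.1% in the controls, which did not overlap.

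**Figure D5:**
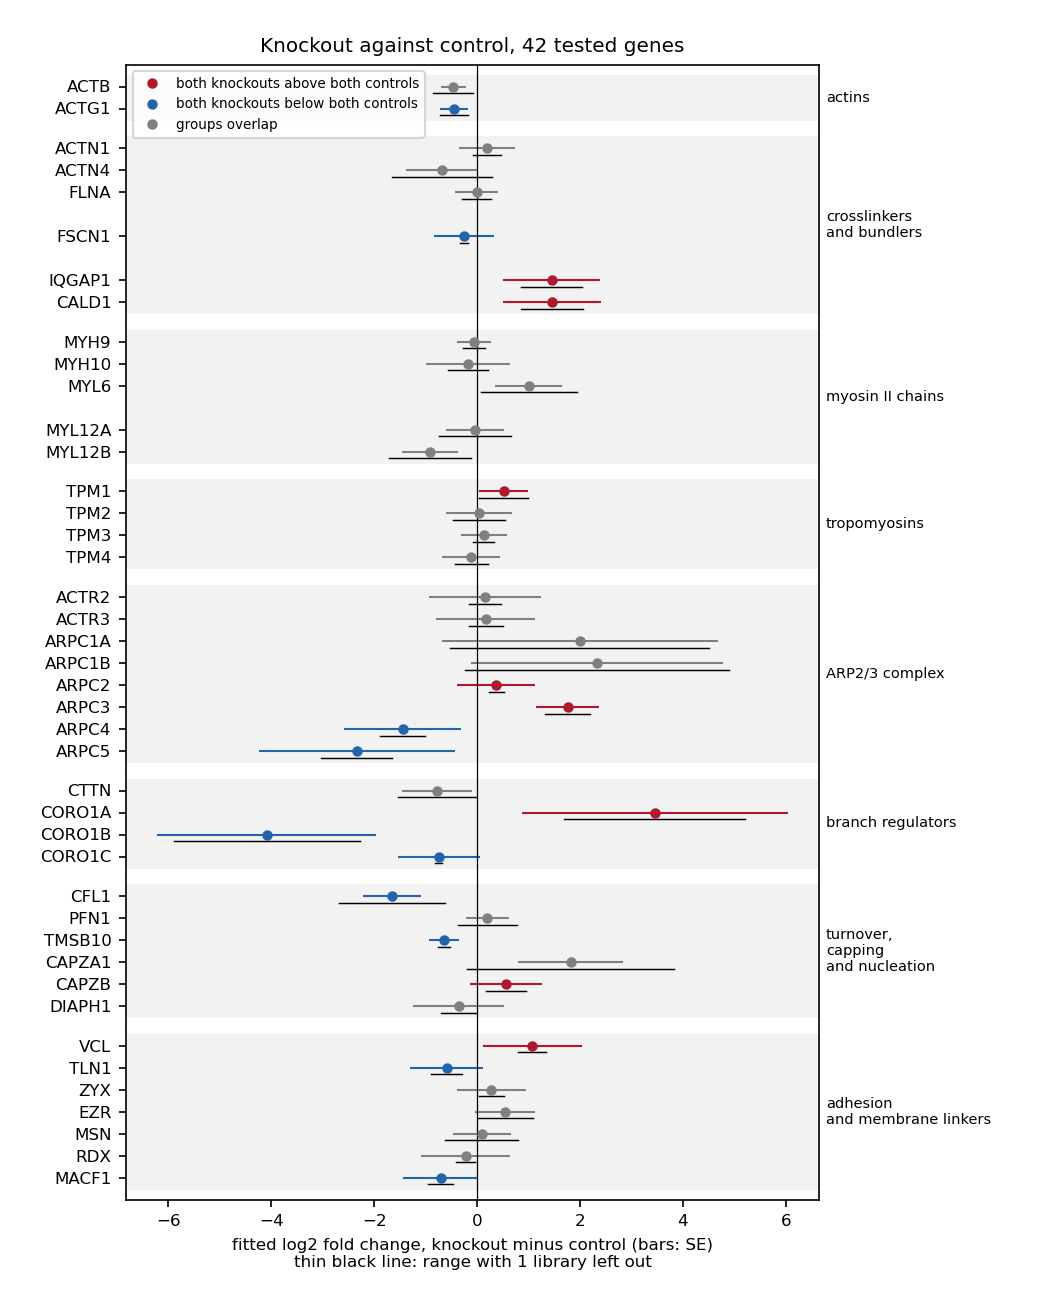
Fitted log2 fold change, knockout minus control, of the 42 tested genes with its SE (horizontal axis), grouped by role, with a thin black line for the range over the 4 fits that leave out 1 library. Red and blue mark the 8 and 10 genes whose knockouts lie above or below both controls, and the adjusted p of every gene is above 0.05.

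As a whole the set took 3.21 and 4.09% of all FPKM in knockouts 1 and 2 and 4.25 and 4.11% in controls 1 and 2. Knockout 2 differed from control 2 by little, and knockout 1 was low. The most abundant members, ACTB, ACTG1, MYH9 and TMSB10, made up 49.9 and 56.6% of the summed FPKM of the set in the knockouts against 63.5 and 61.4% in the controls. The summed FPKM of the actins was 3463 and 5548 in the knockouts against 6280.0 and 5774 in the controls, and that of the ARP2/3 genes 746 and 482 against 329.9 and 341. Of the ARP2/3 sums, ARPC3 alone gave 439 and 241 FPKM in the knockouts against 95.6 and 95.9 in the controls.

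Further genes of the pathway, a list of 75 that covers signalling kinases, WAVE and formin factors, cofilin relatives and adhesion proteins, was read beside the set. Of 66 tested, 0 passed in either direction, with 30 fitted higher and 36 lower, a median log2 fold change of −0.06 and 3 at an unadjusted p under 0.05. The groups did not overlap for 6 higher and 11 lower genes of the 66, a share near that of all tested genes (12.1% higher and 14.4% lower). CNN2, which encodes calponin-2, had FPKM 10.3 and 41.6 in knockouts 1 and 2, against 242 and 63.2 in controls 1 and 2, a log2 fold change of −2.54 ± 0.94 (SE) that ran over −3.52 to −1.56 with 1 library left out. TWF1, which encodes twinfilin-1, a monomer-binding and capping factor, had 139.9 and 43.7 in the knockouts against 3.20 and 15.3 in the controls, a fold of 3.36 ± 1.26 (SE), and 2.32 to 4.41 with 1 library left out. Both separated the groups without passing (adjusted p = 0.858 for CNN2 and 0.888 for TWF1 in limma). PLS3, which encodes the bundler plastin-3, had 119 and 15.2 in the knockouts against 0 and 47.3 in the controls, with overlap and a fold of 3.15 ± 1.57 (SE). That fold was −0.14 without control 1, the library at 0, and up to 6.44 over the other fits with 1 library left out.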

How the data were processed

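PolyA RNA of T24 cells was sequenced in 4 libraries, 2 IGF2BP3 knockout and 2 control, made with the Illumina TruSeq protocol per the labels. Each deposited table holds the FPKM of every gene in a single library, computed by the authors. Reads were counted with HTSeq per the file names, with hg38 as the build per the submitters' processing notes. Not given in the sources used here are the aligner, annotation release, strand setting and duplicate handling. Genes were matched to GENCODE 29 (58039 of 58302), and the genes described and all lists were chosen with earlier results of these data known.

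FPKM times the longest transcript length came out as whole reads for 96.4 to 96.5% of genes above 0 (tolerance 0.0001). Lengths of 7 of the 45 genes (FLNA, MYH9, TPM2, TPM4, ARPC1B, DIAPH1 and RDX) were solved from their own values. The steps give the read totals, which limit precision, and floors of 3 reads cover counting error only.

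Genes averaging 1 FPKM or more were tested with limma 3.58.1 in R 4.3.3 (eBayes with trend) on log2(FPKM + 0.5), which understates changes of low genes, with Benjamini-Hochberg adjustment over all 11463 at 0.05, two-sided. The fit was tested on simulated data. Its SE is taken from genes of like level, so a gene's own replicates carry no weight. Genes named in full are any past the threshold and, in each role group, up to 4 with the highest mean FPKM and up to 2 non-overlapping with the largest fold. ARPC1A, ARPC1B, MYH10, ACTR2, RDX, CAPZA1, DIAPH1, FLNC, LIMA1 and MYL9 are outside that rule. Of the 75 further pathway genes, the rule names the 4 with the smallest p, of which 1 is not reported here. Muscle, leukocyte, fibroblast and endothelial marker lists were checked, and fibroblast markers summed to 0 and 6.73 FPKM in the knockouts and 14.9 and 3.95 in the controls, endothelial markers to 0 and 0 against 0 and 2.72. Alternatives covered the pseudocount, filter, scaling, moderation, limma-voom on recovered reads, a replicate block and leaving out each library. Leaving out libraries within limma-voom was added after seeing the data. Tables and plots were made with pandas 2.3.3, numpy 2.4.6 and matplotlib 3.10.9 under Python 3.11.15.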

Additional observations from a re-analysis of the deposited data

How the results depend on the processing

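No gene of the set passed under any alternative on FPKM. Of 462 folds recomputed with all 4 libraries, 6 turned sign, each from a value within its SE. These 462 include the filter, moderation and replicate-block settings, which cannot change a fold and so could not turn a sign. TPM2 came to −0.0406 under quantile normalization and −0.12 under upper-quartile scaling, TPM3 to −0.0252 and MSN to −0.0625 under upper-quartile scaling, and FLNA to 0.12 and MYH9 to 0.0607 under limma-voom. Upper-quartile scaling put the median of all genes at −0.20 (−0.08 without it) and that of the set at −0.14, and all 3 genes that it turned stay above the median of all genes. Limma-voom called 1 gene of the set, ACTB (−0.24), whose fold lay between −0.87 and −0.12 with a library left out.

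Over all genes 10 passed, against 2 among protein-coding genes (fewer tested), 4 under upper-quartile scaling and 0 when eBayes was run with no trend (415 had an unadjusted p under 0.05). Of the 42 genes of the set, 0 reached that unadjusted level with no trend, against 3 in the main fit and 7 under limma-voom. With 1 library left out, 0 passed (752 to 1025 unadjusted) and the median of the set lay between −0.21 and 0.0138. These fits take the lone library to vary as the pair does. The cause of the other changes was not tested. Of 168 folds with 1 library left out, 23 turned sign, in 16 genes: FLNA (−0.30 to 0.28), MYH9 (−0.27 to 0.15), ACTR2 (−0.15 to 0.47), CAPZA1 (−0.20 to 3.83), MYH10 (−0.56 to 0.22), TPM2 (−0.47 to 0.55), TPM4 (−0.43 to 0.21), MSN (−0.62 to 0.81), ACTN1 (−0.0815 to 0.47), ACTN4 (−1.65 to 0.28), ACTR3 (−0.16 to 0.50), ARPC1B (−0.23 to 4.89), MYL12A (−0.74 to 0.65), TPM3 (−0.0741 to 0.34), ARPC1A (−0.52 to 4.50) and PFN1 (−0.38 to 0.77). A replicate block called 14 genes and 0 of the set. The same number in both groups marks no shared source in the labels, and the replicate differences of the groups were uncorrelated across genes (−0.004).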
